A study of Mus musculus with 3 samples.

Results

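The peaks described here are the 1964 regions on mouse chromosome 3 that were enriched in a ChIRP library of L1 RNA, out of 24666 regions in the deposited peak list. They are 7.96% of all peaks and 8.93% of those on the 19 autosomes. Members were taken by chromosome name, and the chromosome itself was chosen by its number of peaks per Mb, the highest of any autosome, so that density is given as a description and supports nothing. In ChIRP (chromatin isolation by RNA purification), biotinylated DNA probes, here 59 nt long, pull down an RNA together with chromatin crosslinked to it. The cells were E14, an embryonic stem cell line of the mouse, grown in serum with leukemia inhibitory factor and with no genotype or treatment contrast. Crosslinking used UV light, formaldehyde and the crosslinker DSP, and chromatin was sheared to fragments of 2 to 5 kb. The series has 3 libraries, of L1 RNA, Malat1 RNA and input DNA, and the last 2 were not analysed here. With 1 library there is no replicate, so no difference below could be set against a spread between replicates and no test was made.

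L1 elements are retrotransposons that copy themselves through an RNA intermediate, and their full-length copies carry an internal promoter and a pair of open reading frames. In the mouse they gather in AT-rich, gene-poor sequence, which tends to replicate late and to lie at the nuclear periphery, and are thin in gene-dense sequence. L1 transcripts are present in embryonic stem cells and early embryos. Mouse chromosomes have their centromere at one end, and positions are counted from there. Chromosome 3 carries Sox2, a transcription factor of pluripotency, Fgf2, a growth factor, and the epidermal differentiation complex, a gene cluster for proteins of the skin barrier. The genes and repeats at the peaks were not annotated here, because no annotation of mm9, the build of the file, was used. For the same reason no sequence is printed. The labels give genomic DNA as the molecule, whereas the protocol describes reverse transcription of the recovered RNA, and which of them the reads came from was not settled.

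The first peak of chromosome 3 lay at chr3:3081909-3094012 and the last at chr3:159476194-159481175 (mm9, counted from 1). Over this span of 156 Mb the density was 12.6 peaks per Mb. Its 95% exact Poisson interval, 12.01 to 13.13, covers counting error only and treats peaks as independent, which their clustering makes too narrow. The other 18 autosomes ranged from 5.20 on chromosome 11 to 10.9 on chromosome 1, with a median of 8.81. Pooled, they held 8.89 per Mb, so chromosome 3 was 1.41 times denser. Merging peaks closer than 5 kb, a guard against broad regions split by the caller, left the ratio at 1.402, and the ratio of covered bases was 1.48.

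Chromosome 3 had more dense and fewer sparse bins than the other autosomes. Bin counts divide up the density for which the chromosome was chosen, so the shares of bins below are descriptions and support nothing. Their intervals treat bins as independent, although counts of neighbouring bins were correlated. The chromosome was divided into 157 bins of 1 Mb, and a peak was counted in the bin of its midpoint. Bins with 20 or more peaks, called peak-rich, numbered 38, or 24.2% (95% exact binomial interval 17.7 to 31.7), against 10.5% of the 2262 bins of the other autosomes. Bins with 20 to 24 peaks made up 13.4% against 6.72%, and bins with 25 or more made up 10.8% against 3.80%. At the threshold itself, 5 bins of chromosome 3 held 20 peaks and 5 held 19. Bins with 10 or more peaks numbered 89, or 56.7%, against 40.6% elsewhere.

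At the other end, 22 bins held 3 or fewer peaks, or 14.01% (8.99 to 20.4), against 32.5% on the other autosomes. The lowest share among those was 21.95%, on chromosome 14. Bins with no peak numbered 4, or 2.55%, against 12.2%, and the other autosomes ranged from 3.25% on chromosome 14 to 28.6% on chromosome 11. The median bin held 11 peaks on chromosome 3 and 7 on the pooled others, where single chromosomes ranged from 3 to 10. Among bins with 1 to 19 peaks the means were closer, 9.01 against 8.15.

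**Figure D1:**
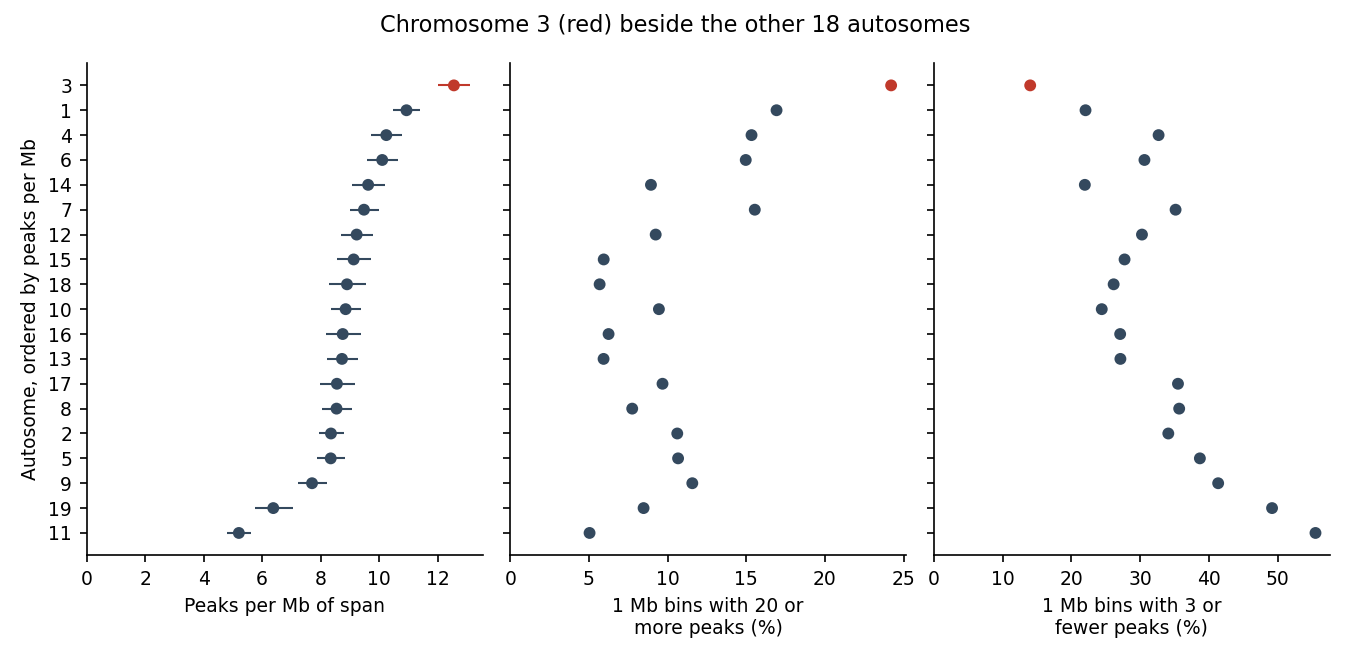
Dot plots with 1 row per autosome, ordered by peaks per Mb of span (left, lines are 95% exact Poisson intervals), beside the percent of 1 Mb bins with 20 or more peaks (middle) and with 3 or fewer (right). Chromosome 3, in red, has the highest value of the 19 in the left and middle panels, 12.6 per Mb and 24.2%, and the lowest in the right panel, 14.01%.

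Along the chromosome the peaks were denser on the centromeric side of the middle, without an even decline. With each span cut at its middle, the ratio of centromeric to distal density was 1.69. The other autosomes had a median of 1.46, and 4 of them stood higher. Bins before 82 Mb, a position close to the middle of the span that was chosen after the values were seen, held 1248 peaks over 79 Mb, or 15.8 per Mb (14.9 to 16.7). From 82 Mb on there were 716 over 78 Mb, or 9.18 per Mb (8.52 to 9.88). Peak-rich bins numbered 29 before that position and 9 after it, and bins with 3 or fewer peaks numbered 4 before and 18 after. By coverage the contrast was of the same kind, with 11.2% of bases under peaks before 82 Mb and 5.97% after.

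In steps of 20 Mb from the first peak, the first step stood highest, with 22.6 peaks per Mb on chromosome 3. The other 18 autosomes ranged there from 7.30 to 19.6 on chromosome 7, with a median of 12.2. In the first 5 Mb alone chromosome 3 held 24.2 per Mb, and 1 other autosome held more. From 20 to 40 Mb chromosome 3 held 11.4 per Mb, above 17 of 18 others. From 40 to 60 and from 60 to 80 Mb it held 14.2 and 14.6, above 16 of 17 chromosomes long enough to reach each step. From 80 to 100 Mb it held 8.45, above 5 of 14 and below their median of 9.05. Beyond that it held 10.6 from 100 to 120 Mb, above 9 of 10, and 9.35 from 120 to 140 Mb, above 5 of 6. From 140 Mb to its last peak it held 8.78, above 1 of the 2 autosomes long enough to reach 160 Mb. The density was thus not carried by the first 20 Mb alone: without that part of every autosome, an alternative added after seeing the data, the ratio to the pooled others was 1.35.

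**Figure D2:**
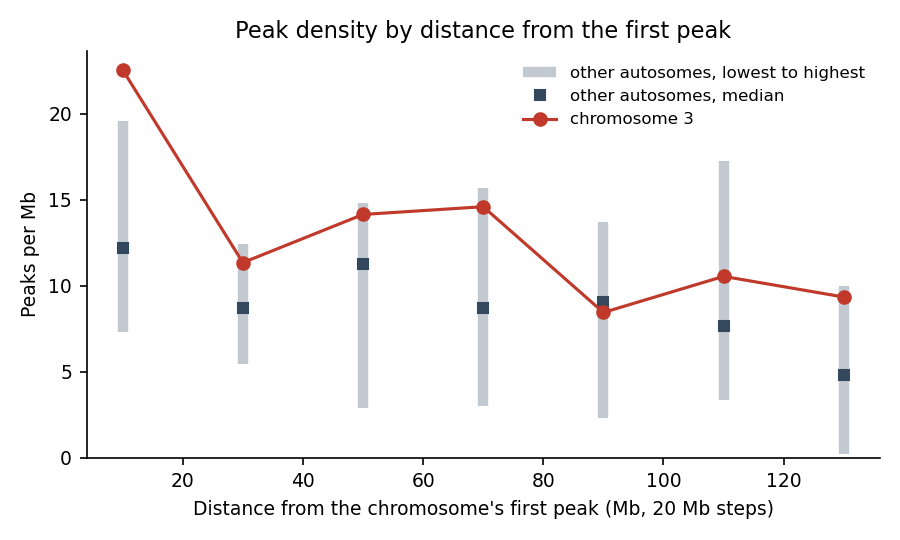
Peaks per Mb (vertical axis) in steps of 20 Mb by distance from each chromosome's first peak (horizontal axis); the red line is chromosome 3, squares are the median and grey bars the lowest to highest value of the other autosomes that reach the step. Chromosome 3 lies above the grey bar in the first step, at 22.6 per Mb, inside the bars afterwards, and below the median from 80 to 100 Mb.

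The densest part of the chromosome was its first 15 Mb of sequence. From chr3:3000001-18000000 there were 351 peaks, or 23.4 per Mb, 17.9% of all peaks of the chromosome. They covered 17.8% of the bases. A pair of peak-rich runs, meaning 3 or more neighbouring peak-rich bins, made up most of this part. The run at chr3:3000001-8000000 had between 22 and 28 peaks per bin, and 29 of its 121 peaks (23.97%) were wider than 10 kb. The run at chr3:10000001-18000000 had between 20 and 33 per bin, and 30 of its 204 peaks (14.7%) were wider than 10 kb. Between the runs lay a dip of 19 peaks in the bin from 8000001 and 7 in that from 9000001. After the second run the count was 19 in the bin from 18000001 and 9 in the bin from 19000001. The distal borders of both runs thus rest on small differences from 20. The second run began with a larger step, from 7 peaks to 21 in the bin from 10000001.

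The length of these runs depended on where the bins began. With bins shifted by 0.5 Mb, the second run broke at chr3:13500001-14500000, which held 17 peaks, into runs of 87 and 86 peaks over 3 Mb each. The first broke at chr3:4500001-5500000, which held 19, leaving a run of 74 peaks over 3 Mb at chr3:5500001-8500000. The longest run of chromosome 3 was then 4 Mb, at chr3:41500001-45500000 with 95 peaks, and the longest on another autosome was 8 Mb, at chr4:13500001-21500000 with 195 peaks. Windows of fixed length that may begin at any peak, added after seeing the data, do not have this limit. The densest 8 Mb of chromosome 3 held 210 peaks, close to 211 on chromosome 7 and 199 on chromosome 4. The densest 5 Mb held 139 peaks, between 143 on chromosome 1 and 137 on chromosome 7. The densest 15 Mb held 353, against 344 on chromosome 7 and 342 on chromosome 4. Like stretches thus existed on several autosomes, with medians of 107, 151.5 and 236 peaks in the densest 5, 8 and 15 Mb of the other 18.

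From 18 to 50 Mb there were 463 peaks, or 14.5 per Mb. Peak-rich bins there were single or in pairs and lay mostly towards both ends of this part. Between them, chr3:30000001-40000000 held 97 peaks, and its only peak-rich bin was chr3:33000001-34000000, with 21. The most crowded bin from 18 to 50 Mb was chr3:22000001-23000000. It had 33 peaks that covered 35.2% of its bases, the highest coverage of any bin of the chromosome. Their median width was 8942 bp, and 14 of the 33 were wider than 10 kb. By contrast, 26 peaks at chr3:20000001-21000000 covered 14.2%, with a median width of 4922.5 bp and 2 wider than 10 kb. Coverage also differed at equal count, since the 4 bins with 28 peaks were between 15.0% and 21.9% covered. Pairs of peak-rich bins lay at chr3:43000001-45000000, with 47 peaks, and chr3:47000001-49000000, with 45. The first peak-free bin was chr3:51000001-52000000, and the 48 Mb before it had at least 1 peak in every bin, 820 in all. Around that bin the peaks were thin: chr3:50000001-60000000 held 83, of which 25 lay in its last bin, chr3:59000001-60000000. Its other bins held between 0 and 15 peaks.

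From 59 to 82 Mb the peaks were spread more evenly, with 376 peaks, or 16.3 per Mb, and no bin under 4. Peak-rich bins there held between 20 and 26 peaks. The densest was chr3:61000001-62000000, which together with its neighbour held 46 peaks over 2 Mb. The median width was 6178.5 bp (95% interval of the median from order statistics 5555 to 6366). It was 6799.5 bp (6606 to 7055) from 3 to 50 Mb, but 6176 bp (5799 to 6480) from 98 to 160 Mb. In the same order, peaks wider than 10 kb made up 10.9%, 17.6% and 10.6%. Within this part the values differed, with 6498.5 bp and 15.5% at chr3:60000001-70000000 but 5531 bp and 5.92% at chr3:70000001-80000000. These parts were set after the values were seen, so their intervals do not test a difference.

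Sparse sequence returned just beyond the middle. From 82 to 98 Mb there were 112 peaks, or 7.00 per Mb, and 54 of those lay in 1 island of 2 Mb. This island, chr3:90000001-92000000, had 24 and 30 peaks per bin and was 21.3% covered. It began abruptly: the 3 Mb before it, chr3:87000001-90000000, held 2 peaks, and the longest peak-free stretch of the chromosome ended at its first peak. Past the island, 3 bins at chr3:95000001-98000000 held 3 peaks together. These were the longest runs of bins with 3 or fewer peaks on chromosome 3, whereas the longest such run on each other autosome was between 4 Mb on chromosome 14 and 20 Mb on chromosome 4.

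Peak-free stretches over 1 Mb between neighbouring peaks numbered 5. The longest was chr3:87152667-90485884, of 3.33 Mb. Next came chr3:94705783-96665045 of 1.96 Mb and chr3:50767844-52232088 of 1.46 Mb. The other 2 were chr3:120768711-121926938 of 1.16 Mb and chr3:83454531-84565465 of 1.11 Mb. Just under the threshold lay chr3:30257273-31248214, of 0.99 Mb. Together the 5 took up 9.03 Mb, or 5.77% of the span, where the other autosomes ranged from 11.4% on chromosome 14 to 45.5% on chromosome 11 and from 9 to 21 stretches. The longest single stretch was not unusual in size: 6 of the other 18 autosomes had a shorter longest stretch. Gaps over 0.5 Mb numbered 38, of which 28 lay beyond 82 Mb, and 1 other autosome had fewer of them per Mb. Gap counts and density are not independent measures, and density chose the chromosome, so these values are descriptions. The part of assembly gaps in these stretches was not tested.

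Beyond 98 Mb several peak-rich bins stood between sparser ones. The part from 98 to 160 Mb held 604 peaks, or 9.74 per Mb. The bin chr3:106000001-107000000 held 31 peaks with 27.8% coverage, between neighbours of 10 and 2 peaks. Of its peaks, 12 of 31 were wider than 10 kb. The bin chr3:98000001-99000000 held 28 peaks next to a bin of 2. The bin chr3:134000001-135000000 held 24 peaks, between bins of 15 and 8. Others were less set apart: chr3:111000001-112000000 and chr3:113000001-114000000, with 21 and 20 peaks, had a bin of 19 between them, and with shifted bins they formed a run of 64 peaks over 3 Mb at chr3:111500001-114500000. The largest steps between neighbouring bins were the drop from 31 to 2 peaks at chr3:106000001-108000000, the rise from 2 to 28 at chr3:97000001-99000000, and the rise from 0 to 24 at chr3:89000001-91000000.

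The far end of the chromosome turned dense again. From 143 to 158 Mb there were 95 peaks, or 6.33 per Mb, with no bin over 12. The last 2 bins, chr3:158000001-160000000, held 29 and 20 peaks, although the last peak ended at 159481175, so the final bin was filled in part. In the last 10 Mb of span chromosome 3 held 11.1 peaks per Mb, where the other autosomes had a median of 4.10 and ranged from 0.50 on chromosome 11 to 12.9 on chromosome 18. Chromosomes 14 and 18 stood higher. Counts of neighbouring bins were less alike than on most autosomes: their Spearman correlation across 156 pairs of bins 1 Mb apart was 0.40, where the other autosomes had a median of 0.57 and 2 of 18 had a lower value. These bins come from 1 library and are not independent, so the correlations are descriptions.

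**Figure D3:**
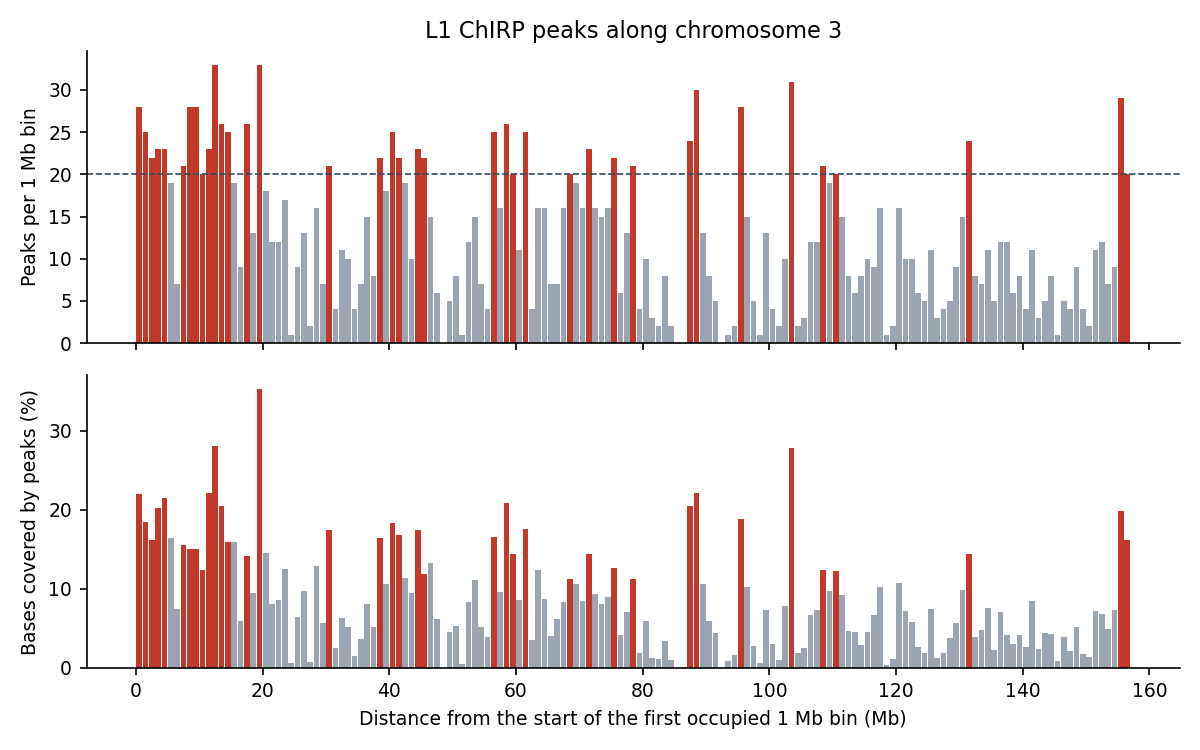
Number of L1 ChIRP peaks (top) and percent of bases under peaks (bottom) in each 1 Mb bin of chromosome 3, by distance from the start of the first occupied bin; red bars are the 38 bins with 20 or more peaks and the dashed line marks 20. Red bars run together at the left end, next to the centromere, stand alone or in pairs further right, and return as a pair at the right end.

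Neighbouring peaks of chromosome 3 were 30.7 kb apart at the median (order-statistic interval 28.7 to 33.1), with quartiles of 9.39 and 78.2 kb. Only chromosome 7, at 30.6 kb, had a shorter median gap among the autosomes, and the pooled others stood at 36.7 kb. Of the 1963 gaps, 180 were 1 kb or shorter and 363 were over 100 kb. Peaks with another within 10 kb numbered 854, or 43.5% (41.3 to 45.7), against 39.9% on the other autosomes, and 3 of them (chromosomes 4, 7 and 17) had higher shares. Spacing and density are not independent measures, and density chose the chromosome. In peak-rich bins 57.5% of peaks had such a neighbour, in bins with 10 to 19 peaks 36.5%, and in bins with 4 to 9 peaks 20.9%. In the peak-rich bins of the other autosomes the median share over chromosomes was 54.3%, with a range from 48.6% to 64.5%.

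Chains of 4 or more peaks, each within 10 kb of the next, numbered 40 and held 177 peaks, or 9.01% of the chromosome's peaks. On 4 of the other 18 autosomes that share was higher. Of the 40 chains, 26 lay before 82 Mb, which held 63.5% of all peaks of the chromosome, and 9 lay inside the peak-rich runs, which held 16.5%. The longest had 8 peaks, at chr3:22324378-22428839, in the bin of highest coverage, with widths from 2502 to 20321 bp. The next had 7 peaks each, at chr3:3399075-3496262 and at chr3:90691447-90791155, the latter inside the island after the longest peak-free stretch. In these 3 chains peaks covered 73.2%, 67.2% and 75.9% of the bases from first to last. With gaps of up to 100 kb allowed, a wider rule added after seeing the data, the largest groups of chromosome 3 held 54 peaks at chr3:11792225-13450583, 54 at chr3:90485885-91826885 and 46 at chr3:158234898-159481175. On all autosomes the largest such group held 57 peaks, at chr17:21944131-23612881.

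Peaks of chromosome 3 were similar in width to those of the other autosomes, with slightly more of the widest than on the others pooled. The median was 6512 bp (6382 to 6617), with quartiles of 4218 and 8440 bp, against 6361 bp (6325 to 6395) on the pooled others. The medians of single autosomes ranged from 5726.5 bp on chromosome 7 to 6697 bp on chromosome 10, and 4 of them lay above chromosome 3. Peaks wider than 10 kb numbered 282, or 14.4% (12.8 to 15.99), against 11.9%, and only chromosome 19, at 16.1%, had a higher share. Chromosomes 6, 13 and 10 had nearly the same share, 14.3%, 14.2% and 13.97%, so it was not particular to chromosome 3. The median over the other autosomes was 12.5%. Peaks wider than 15 kb numbered 73, or 3.72% (2.92 to 4.65), against 2.56%. Peaks of 6 to 7.5 kb numbered 444, or 22.6% (20.8 to 24.5), against 23.5%, and peaks under 2 kb numbered 80, or 4.07%, against 4.32%. Neither share was separated from that of the other autosomes by its counting interval.

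**Figure D4:**
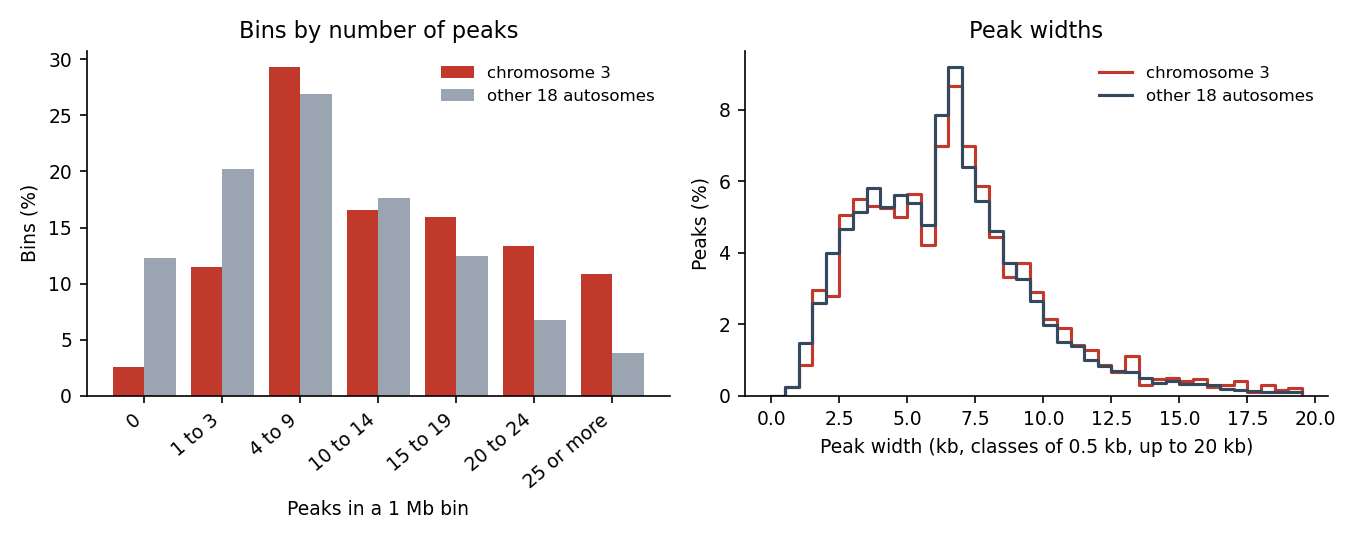
Left, percent of 1 Mb bins (vertical axis) by number of peaks in the bin for chromosome 3 (red) and the other 18 autosomes pooled (grey); right, percent of peaks by width in classes of 0.5 kb up to 20 kb. In the left panel chromosome 3 has fewer bins with 0 to 3 peaks and more with 20 or more, whereas in the right panel both curves have their highest class at 6.5 to 7 kb.

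The 5 widest peaks lay before 82 Mb. The widest was chr3:14446597-14479238, of 32642 bp, inside the second peak-rich run, followed by chr3:7174318-7204809, of 30492 bp, inside the first. The next were chr3:61911055-61940543 of 29489 bp, chr3:23196159-23225174 of 29016 bp and chr3:16461484-16487979 of 26496 bp. The narrowest were chr3:140952184-140952940 of 757 bp, chr3:84802625-84803410 of 786 bp, chr3:152651508-152652375 of 868 bp, chr3:59411500-59412391 of 892 bp and chr3:33486321-33487253 of 933 bp.

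Median width varied between tiles of 10 Mb, from 4766 bp (3943 to 6200) at chr3:80000001-90000000 to 7183 bp (6653 to 7740) at chr3:50000001-60000000. Both of these tiles had few peaks, 63 and 83, so wide peaks did not go only with dense tiles. In peak-rich bins the median was 6656 bp and 16.8% of peaks (14.5 to 19.4) were wider than 10 kb, against 11.7% (9.42 to 14.3) in bins with 10 to 19 peaks. The share was 14.04% (10.3 to 18.6) in bins with 4 to 9 peaks. Inside the runs of peak-rich bins the median was 6749 bp, against 6444 bp in the rest of chromosome 3, and the difference of 305 bp shrank to 26.5 bp when runs were taken at 15 or more peaks per bin.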

How the data were processed

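The deposited file is the authors' list of peaks from 1 L1 ChIRP library, with 3 columns (chromosome, start and end) and no height, score or p-value. Per the submitters' processing notes, CASAVA, Bowtie2 2.2.2, MACS 1.4.2 and the build mm9 were used, without roles or settings. Not given in the sources used here were the control used for calling, the depth, and how reads with several map positions were handled, which bears on near-identical L1 copies. Hence a region without a peak may hold signal below detection.

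Scripts ran under Python 3.11.15 with scipy 1.17.1, pandas 2.3.3, numpy 2.4.6 and, for plots, matplotlib 3.10.9, and were checked on simulated peaks. Chromosome lengths were not used, and span is the distance between the outer ends of the outermost peaks. Densities have exact Poisson and shares exact Clopper-Pearson intervals at 95%, for counting error only. Bins cover the same range. Named regions were the bins with the most peaks, runs, stretches over 1 Mb, the 5 widest and 5 narrowest peaks and the longest chains, with others named after their values were seen. The members and rules were chosen with earlier results of these data known. Planned gene lists could not be placed without an annotation of mm9 and were not used.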

Additional observations from a re-analysis of the deposited data

How the results depend on the processing

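Of 31 alternatives, 14 stayed within the counting interval (or within 1.5 times for a count) and 17 moved. The 14 include the width difference between runs and the rest, which fell from 305 to 26.5 bp within a wide interval of 21 to 688 bp. A change of direction was looked for only in that difference and was not seen. The density ratio of 1.41 became 1.33 without the first and last 10 Mb of each chromosome and 1.27 without bins that hold no peak. Chromosome 3 ranked first of 19 autosomes in each of the 8 alternatives for density. All of them recount the value for which the chromosome was chosen, so the rank is a description and supports nothing. The 38 peak-rich bins became 14 with peaks closer than 5 kb merged, 63 at 15 or more peaks, 17 at 25 or more and 13 bins of 2 Mb with 40 or more, again ranked first by share. The 4 peak-free bins became 27 bins of 0.5 Mb, and the 5 long gaps became 38 over 0.5 Mb. For gaps per Mb, chromosome 3 moved from rank 1 to rank 2 from the fewest. The 2 peak-rich runs became 7 at 15 or more peaks, 1 at 25 or more, 6 with shifted bins and 0 after merging, when no other autosome had one either. The longest run of chromosome 3 was 8 Mb, against at most 5 Mb on another autosome. At 15 or more peaks it was 9 Mb against 14 Mb, and with shifted bins 4 Mb against 8 Mb. At 25 or more both were 3 Mb. The median width became 6756.5 bp with peaks closer than 1 kb merged. The median gap of 30.7 kb became 35.7 kb after that merge and 33.7 kb without the peak-rich runs (added after seeing the data). The share with a close neighbour became 33.02% after that merge and 82.3% within 50 kb. A stricter calling threshold could not be tried because the file has no score, and gene-based results were not run. No paired analysis was possible because there is no replicate in any group.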
